A study of Saccharomyces cerevisiae with 8 samples.

Results

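The 7 genes *HIS1* to *HIS7*, which encode the enzymes that make histidine in budding yeast, were followed in RNA-seq libraries of 4 strains. They were chosen by name as the genes of the pathway, and all 7 were found among the 6103 lines of the expression table and passed its filter on low values. The strains were *sin3∆*, *srb2∆* and *mig1∆* derivatives of ScY01a and ScY01a itself, called the wild type (WT), with 2 libraries per strain and 8 in all. ScY01a is a *MATa* haploid derived from an industrial strain that had been evolved for tolerance of heat, so all 4 strains share that background. In each deletion strain the coding region of *SIN3*, *SRB2* or *MIG1* had been replaced in full by the KanMX marker. All cultures were grown at 30°C for 10 h, shaken at 200 rpm, in YP medium with 200 g/L glucose. Sin3p is the scaffold of histone deacetylase complexes, Srb2p is a subunit of the head of the Mediator complex, and Mig1p is a repressor that acts when glucose is plentiful. The sources used here do not say if the 2 libraries of a strain are from separate cultures, so p-values measure only the spread between these libraries, which may be technical. Nor do they say if a deletion strain was more than 1 transformant.

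Histidine is made from phosphoribosyl pyrophosphate and ATP in a linear pathway. *HIS1* encodes ATP phosphoribosyltransferase, the enzyme of the first step, which histidine inhibits. *HIS4* encodes a protein with 3 activities, which acts early in the pathway and again at its end as histidinol dehydrogenase. *HIS6* encodes the isomerase, and *HIS7* encodes the glutamine amidotransferase and cyclase that closes the imidazole ring and releases AICAR, an intermediate of purine synthesis. *HIS3* encodes imidazoleglycerol-phosphate dehydratase, *HIS5* the aminotransferase and *HIS2* the phosphatase that yields histidinol. The pathway is a classic target of general amino acid control, in which the activator Gcn4p binds upstream of genes of many amino acid pathways. Bas1p and Pho2p (Bas2p) also activate several of these genes and link them to adenine synthesis.

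The genes are scattered over the genome and each has 1 coding exon. On R64 their coding regions lie at chrV:264892-265785 for *HIS1* (YER055C, minus strand), chrIII:65934-68333 for *HIS4* (YCL030C, minus strand), chrIX:314035-314820 for *HIS6* (YIL020C, minus strand) and chrII:714807-716465 for *HIS7* (YBR248C, minus strand). Those of the other genes lie at chrXV:721946-722608 for *HIS3* (YOR202W, plus strand), chrIX:142928-144085 for *HIS5* (YIL116W, plus strand) and chrVI:203743-204750 for *HIS2* (YFR025C, minus strand). None overlaps another annotated gene in the RefSeq annotation.

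The letters TGACTC, the core of Gcn4p sites that Bas1p sites share, were searched on both strands from 250 bases before to 50 bases after each coding start. They stood in 6 of the 7 windows and in 7.96% of all 6020 windows of that length. *HIS2* had no match, *HIS4* and *HIS7* had 2 matches each, and *HIS1*, *HIS3*, *HIS5* and *HIS6* had 1 each. The longer TGACTCA, which holds TGACTC, stood in the windows of *HIS1*, *HIS4*, *HIS5* and *HIS7* and in 2.72% of all windows. The matches and their flanks are shown because *HIS2* alone had none, in R64 sequence from RefSeq read 5′ to 3′ on the strand of each gene. Capitals mark TGACTC, or GAGTCA where the match lies on the other strand.
HIS1: aagcttccaagtGAGTCAcctctaccgttg
HIS4: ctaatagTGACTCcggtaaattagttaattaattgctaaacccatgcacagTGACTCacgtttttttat
HIS6: gtctagtgtgcaGAGTCAtacggaataatt
HIS7, farther from the start: caaaaaaaaattGAGTCAtatcgtagcttt
HIS7, nearer to the start: ttcatgagaaaaGAGTCAgacatcgaaaca
HIS3: ccacctagcggaTGACTCtttttttttctt
HIS5: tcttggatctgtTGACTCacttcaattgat
Their positions are chrV:265951-265980 for *HIS1*, chrIII:68515-68583 for *HIS4*, chrIX:314897-314926 for *HIS6*, chrII:716678-716707 and chrII:716592-716621 for *HIS7*, chrXV:721812-721841 for *HIS3* and chrIX:142714-142743 for *HIS5*. Counted from the first base of the start codon, the first bases of the matches stood at -183 in *HIS1*, -243 and -199 in *HIS4*, -94 in *HIS6*, -230 and -144 in *HIS7*, -122 in *HIS3* and -202 in *HIS5*. Neither GCCGCC, the core of the element bound by Ume6p, which recruits Sin3p, nor GCGGGG, the core letters of Mig1p sites, was found in any of the 7 windows, against 5.12% and 2.56% of all windows. TATAAA was found in those of *HIS1*, *HIS3* and *HIS5* and in 45.4% of all windows. The match in *HIS5* began at base 38 of the coding region, on the other strand, and not ahead of the start. A match of letters is a description and was not tested as a binding site.

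Levels are RPKM as deposited, which corrects for gene length and library size, so that levels of different genes can be compared per length. The libraries summed to between 862336 and 1150769 RPKM with a geometric mean of 999854, which the unit alone would not give. No read counts were used here. The paper gives an average number of reads and an average mapping rate over its libraries. The reads behind a single value here are unknown. *SIN3*, *SRB2* and *MIG1* were each at 0 in the 2 libraries that lack them. Of the **a**-cell genes, *STE2*, *BAR1*, *STE6* and *AGA2* were present in all 8 libraries, while the pheromone genes *MFA1* and *MFA2* were listed at 0 in all 8. The 4 alpha-cell genes looked at lay at or below 21.8 RPKM. The 138 genes of cytosolic ribosomal proteins took 41.1% of the summed RPKM in both *sin3∆* libraries, 42.8% and 42.0% in *srb2∆*, 24.1% and 25.9% in *mig1∆*, and 19.3% and 22.5% in the wild type. This share was high in the 2 deletions in which histidine genes were called, and values from a scaling made without these genes are given for the histidine genes where they changed a call or a sign.

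Histidine genes rose in *sin3∆*, where 6 of the 7 were called higher than in the wild type and none lower (*HIS2*, at an unadjusted p of 0.0897, was not called). A call needed a 2-fold change or more with an adjusted p no higher than 0.05 in limma, and of all 5628 genes tested 17.7% were called higher and 12.2% lower in this comparison. Together the 7 genes reached 2399 and 2440 RPKM in the *sin3∆* libraries, 733 and 725 in *srb2∆*, 440 and 471 in *mig1∆* and 492 and 514 in the wild type. As ppm of each library's own summed RPKM, which takes out the scaling between libraries, the 7 genes had 2117 and 2120 ppm in *sin3∆*, 684 and 696 in *srb2∆*, 500 and 495 in *mig1∆* and 570 and 540 in the wild type. The *sin3∆* libraries thus stood far above all others on either scale.

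**Figure D1:**
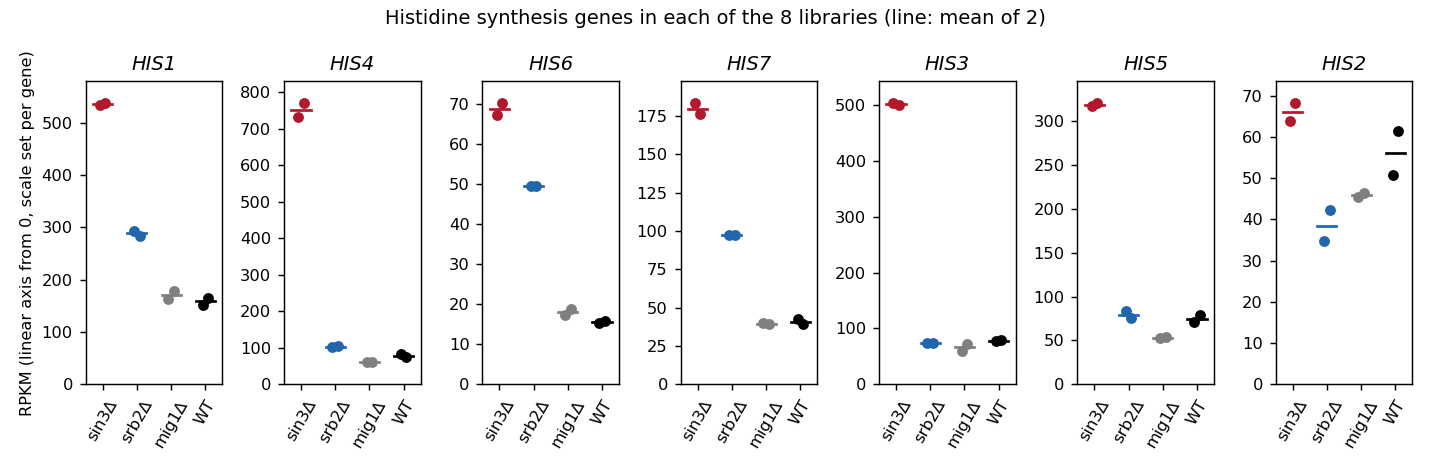
RPKM of the 7 histidine synthesis genes in each of the 8 libraries, one panel per gene in order of the pathway, with the vertical axis in RPKM from 0 and scaled per gene. Points are libraries and lines are means of 2 libraries. The *sin3∆* libraries stand above all others in every panel, between 732 and 769 RPKM for *HIS4*, and the mean in *srb2∆* is 1.81, 3.20 and 2.38 times that of the wild type for *HIS1*, *HIS6* and *HIS7*.

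*HIS1*, at the head of the pathway, had 533 and 536 RPKM in *sin3∆*, 293 and 283 in *srb2∆*, 163 and 179 in *mig1∆*, and 152 and 165 in the wild type. Both *sin3∆* and *srb2∆* lay apart from the wild type, while *mig1∆* overlapped it. The log2 fold change on the log2(RPKM + 1) scale was 1.75 in *sin3∆* (SE 0.08, adjusted p = 1.24e-06) and 0.86 in *srb2∆* (SE 0.08, adjusted p = 3.54e-05), short of the 2-fold threshold. With libraries scaled without the ribosomal protein genes the value in *srb2∆* was 1.09 and was called.

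*HIS4*, the gene of the trifunctional enzyme, had 732 and 769 RPKM in *sin3∆*, 101 and 104 in *srb2∆*, 61.4 and 60.4 in *mig1∆*, and 82.4 and 75.1 in the wild type. No 2 strains overlapped. Its log2 fold change in *sin3∆* was the largest of the 7, at 3.24 (SE 0.07, adjusted p = 8.58e-08), a ratio of means of 9.52, and was the 70th highest of the 5628 genes. In *srb2∆* it was 0.38 (SE 0.07, adjusted p = 0.00182), under the 2-fold threshold.

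*HIS6* was the least abundant of the genes in the wild type, and it was the one that *srb2∆* moved most. The isomerase gene had 67.2 and 70.1 RPKM in *sin3∆*, 49.4 and 49.6 in *srb2∆*, 17.3 and 18.8 in *mig1∆*, and 15.3 and 15.7 in the wild type. No 2 strains overlapped. Its log2 fold change was 2.08 in *sin3∆* (SE 0.07, adjusted p = 5.2e-07) and 1.61 in *srb2∆* (SE 0.07, adjusted p = 1.37e-06).

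*HIS7*, whose product makes the branch to AICAR, had 183 and 176 RPKM in *sin3∆*, 97.0 and 97.5 in *srb2∆*, 39.95 and 39.3 in *mig1∆*, and 42.5 and 39.2 in the wild type. Its libraries of *mig1∆* lay within the range of the wild type. Its log2 fold change was 2.11 in *sin3∆* (SE 0.07, adjusted p = 3.46e-07) and 1.23 in *srb2∆* (SE 0.07, adjusted p = 3.2e-06).

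*HIS3*, the dehydratase gene, had 503 and 499.8 RPKM in *sin3∆*, 73.8 and 73.6 in *srb2∆*, 60.3 and 73.0 in *mig1∆*, and 77.2 and 78.5 in the wild type. The *sin3∆* libraries stood alone and the other 3 strains lay between 60.3 and 78.5. The log2 fold change in *sin3∆* was 2.67 (SE 0.09, adjusted p = 4.62e-07), the 104th highest of all genes tested. In *srb2∆* it was -0.08 with a 95% interval of -0.29 to 0.14 (adjusted p = 0.469), and this small value changed sign with the scaling.

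*HIS5*, the aminotransferase gene, followed the same course, with 317 and 320 RPKM in *sin3∆*, 83.1 and 75.1 in *srb2∆*, 52.4 and 53.5 in *mig1∆*, and 71.1 and 78.6 in the wild type. Libraries of *srb2∆* and of the wild type overlapped. The log2 fold change was 2.08 in *sin3∆* (SE 0.08, adjusted p = 6.96e-07) and 0.08 in *srb2∆*, with a 95% interval of -0.11 to 0.26 (adjusted p = 0.392). The sign in *srb2∆* turned with total-sum scaling.

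*HIS2*, the phosphatase gene, was the exception in *sin3∆*. It had 63.9 and 68.1 RPKM in *sin3∆*, 34.7 and 42.3 in *srb2∆*, 45.5 and 46.5 in *mig1∆*, and 50.7 and 61.4 in the wild type. The *sin3∆* libraries were the highest and the *srb2∆* libraries the lowest, without overlap with the wild type on either side. The log2 fold change in *sin3∆* was 0.24 with a 95% interval of -0.05 to 0.52 (adjusted p = 0.113), and it was -0.09 after total-sum scaling. That in *srb2∆* was -0.53 (SE 0.12, adjusted p = 0.00552), short of the fold threshold.

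In *srb2∆*, 2 of the 7 genes, *HIS6* and *HIS7*, were called higher than in the wild type and none lower, where 15.0% of all genes were called higher and 14.9% lower. The median log2 fold change of the 7 genes was 0.38 in *srb2∆* and 2.08 in *sin3∆*, while that of all genes was -0.01 and 0.01. The count in *sin3∆* was 6 under each of 17 alternatives, among them scaling without the ribosomal protein genes. With a library of *sin3∆* or the wild type left out, values of the 6 called genes lay between 1.69 and 3.30. Libraries of *srb2∆* and *mig1∆* were not left out for this comparison. The count in *srb2∆* lay between 2 and 4 under 18 alternatives.

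**Figure D2:**
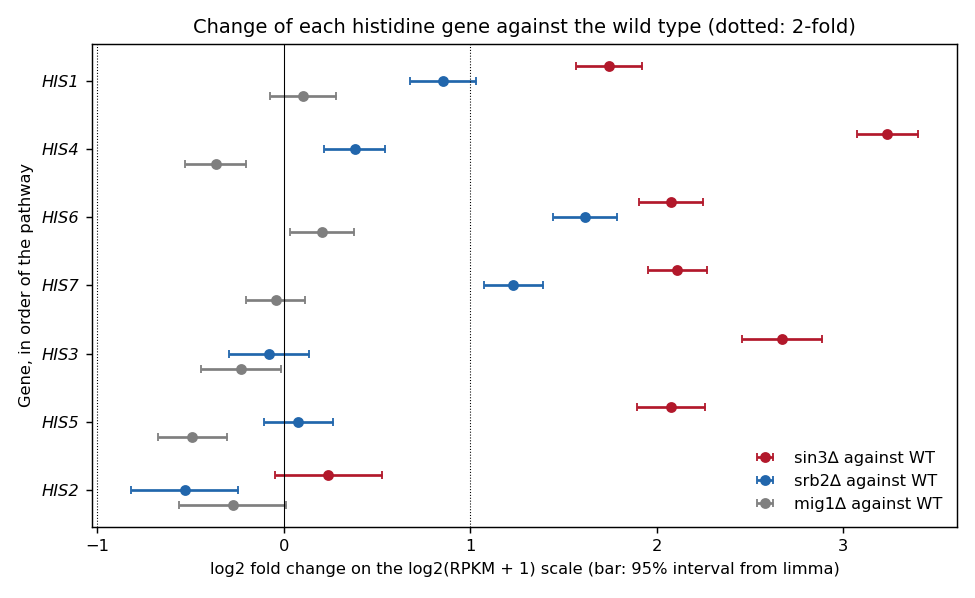
Log2 fold change of each histidine gene against the wild type, on the log2(RPKM + 1) scale, for *sin3∆*, *srb2∆* and *mig1∆*. Points are estimates and bars 95% intervals from limma, and dotted lines mark 2-fold. In *sin3∆* all genes but *HIS2* lie beyond 2-fold, up to 3.24 for *HIS4*, and in *srb2∆* only *HIS6* at 1.61 and *HIS7* at 1.23 do.

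In *mig1∆* none of the 7 genes was called in limma. At an unadjusted p under 0.05 there were 4, against 28.9% of all genes, and calls were few in this strain, with 0.995% of genes higher and 0.657% lower. *HIS5* (log2 fold change -0.49, adjusted p = 0.00979) and *HIS4* (-0.36, adjusted p = 0.0184) passed the adjusted p but not the fold threshold. The *mig1∆* libraries lay below both wild-type libraries for *HIS5*, *HIS4*, *HIS2* and *HIS3*, and above both for *HIS6*. The 4 genes at an unadjusted p under 0.05 were *HIS3*, *HIS4* and *HIS5*, which were lower, and *HIS6*, which was higher. Apart from *HIS5* and *HIS4*, values ran from -0.27 for *HIS2* to 0.21 for *HIS6*.

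A direct comparison of both deletions divided the genes. In *sin3∆* against *srb2∆*, *HIS4* was higher with a log2 fold change of 2.86 (SE 0.07, adjusted p = 2.44e-07), *HIS3* with 2.75 (SE 0.09, adjusted p = 7.44e-07) and *HIS5* with 2.00 (SE 0.08, adjusted p = 1.43e-06). These 3 of 7 were called and none was lower, where 11.9% of all genes were called higher and 2.95% lower. *HIS1* at 0.89 (adjusted p = 6.37e-05), *HIS7* at 0.88 (adjusted p = 3.84e-05), *HIS2* at 0.77 (adjusted p = 0.0013) and *HIS6* at 0.46 (adjusted p = 0.0013) were higher in *sin3∆* by less than 2-fold. At an unadjusted p under 0.05 all 7 genes differed between these strains, against 63.0% of all genes. In the comparisons of *sin3∆* and *srb2∆* with the wild type, the shares at that level over all genes were 76.2% and 73.8%, with 6 and 5 of the 7 genes among them. The comparisons with the wild type share its 2 libraries, so that their values stand side by side and were not set against each other as a test.

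Across the 8 libraries most of the genes ran alike. Among *HIS1*, *HIS3*, *HIS4*, *HIS5*, *HIS6* and *HIS7*, Pearson's r of log2(RPKM + 1) lay between 0.72, for *HIS3* with *HIS6*, and 0.99, for *HIS4* with *HIS5*. It was 0.98 for *HIS3* with *HIS5* and for *HIS6* with *HIS7*, 0.93 for *HIS1* with *HIS4* and 0.90 for *HIS4* with *HIS7*. *HIS2* ran least like the others, with values between 0.13 with *HIS6* and 0.73 with *HIS3*. These coefficients describe 8 libraries that share 4 strains and 1 scaling.

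The make-up of the histidine gene RNA differed between strains, a ratio within each library that scaling between libraries does not touch. *HIS4* made up 31.0% ± 0.72 of the summed RPKM of the 7 genes in *sin3∆*, 14.1% ± 0.35 in *srb2∆*, 13.4% ± 0.79 in *mig1∆* and 15.7% ± 1.52 in the wild type (SD, n = 2 each). *HIS1* made up 22.1% ± 0.16 in *sin3∆*, 39.5% ± 0.72 in *srb2∆*, 37.6% ± 0.70 in *mig1∆* and 31.6% ± 0.82 in the wild type (SD, n = 2 each). *HIS2* made up 2.73% ± 0.089 in *sin3∆*, 5.28% ± 0.78 in *srb2∆*, 10.1% ± 0.33 in *mig1∆* and 11.1% ± 1.16 in the wild type (SD, n = 2 each). *HIS6* made up 2.84% ± 0.051 in *sin3∆*, 6.79% ± 0.067 in *srb2∆*, 3.97% ± 0.049 in *mig1∆* and 3.08% ± 0.028 in the wild type (SD, n = 2 each). The shares are a description and were not tested.

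**Figure D3:**
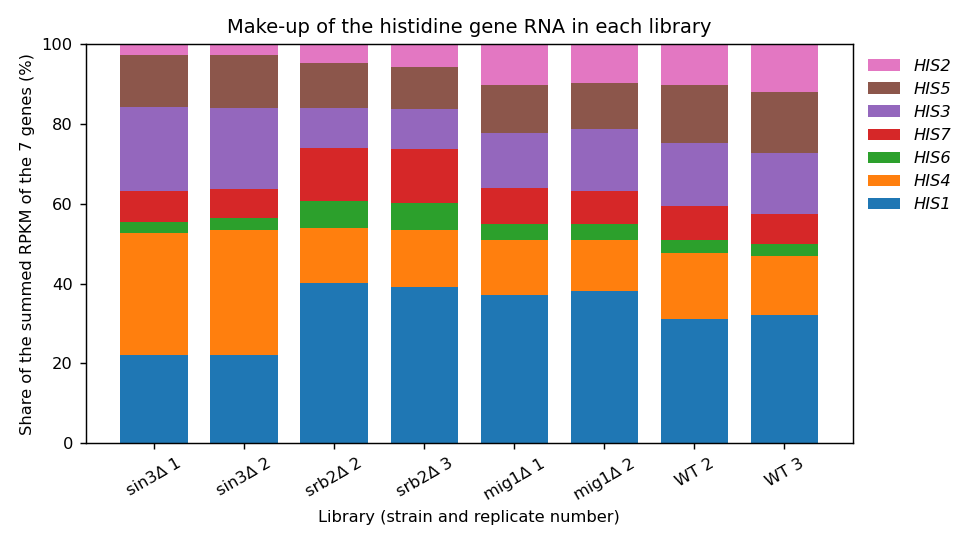
Share of each gene in the summed RPKM of the 7 histidine genes, in percent, with one stacked bar for each of the 8 libraries. *HIS4* takes 31.0% on average in *sin3∆* and 15.7% in the wild type, and *HIS1* takes 39.5% in *srb2∆* and 31.6% in the wild type.

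In order of level, *sin3∆* ran *HIS4*, *HIS1*, *HIS3*, *HIS5*, *HIS7*, *HIS6* and *HIS2*, and only *HIS6* and *HIS2* overlapped, at means of 68.7 and 66.0 RPKM. The order in *srb2∆* was *HIS1*, *HIS4*, *HIS7*, *HIS5*, *HIS3*, *HIS6* and *HIS2*, with no overlap between neighbours. In *mig1∆* it was *HIS1*, *HIS3*, *HIS4*, *HIS5*, *HIS2*, *HIS7* and *HIS6*, with overlap of *HIS3* and *HIS4*. In the wild type it was *HIS1*, *HIS4*, *HIS3*, *HIS5*, *HIS2*, *HIS7* and *HIS6*, and *HIS4* with *HIS3* and *HIS3* with *HIS5* overlapped, at means of 78.8, 77.9 and 74.9 RPKM. The mean of the highest gene was 11.4 times that of the lowest in *sin3∆*, 7.48 times in *srb2∆*, 9.47 times in *mig1∆* and 10.3 times in the wild type.

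Of the activators of the pathway, *BAS1* rose in both *sin3∆* and *srb2∆*, while *GCN4* and *PHO2* did not reach 2-fold in either. *GCN4*, whose mRNA level is only part of its control because its protein is set mainly by translation, had 991 and 1009 RPKM in *sin3∆*, 669 and 616 in *srb2∆*, 709.8 and 735 in *mig1∆*, and 626 and 572 in the wild type. The *sin3∆* libraries were the highest, with a log2 fold change of 0.74 (adjusted p = 9.49e-05), under 2-fold, and *srb2∆* overlapped the wild type at 0.10 (adjusted p = 0.274). *BAS1* had 26.3 and 28.9 RPKM in *sin3∆*, 17.4 in both *srb2∆* libraries, 10.3 and 9.95 in *mig1∆*, and 8.03 and 7.59 in the wild type. It was called in *sin3∆* at 1.70 (adjusted p = 2.59e-06) and in *srb2∆* at 1.06 (adjusted p = 2.46e-05). In *srb2∆* total-sum scaling gave 0.86, pseudocount 5 gave 0.81 and *mig1∆* as the control gave 0.72, none of them called. *PHO2*, which encodes the partner of Bas1p, had 0.06 in *sin3∆* (adjusted p = 0.642) and 0.02 in *srb2∆* (adjusted p = 0.899), whose signs turned with the scaling. *GCN2*, the kinase gene that starts the Gcn4p response, had -0.41 in *sin3∆* (adjusted p = 0.0384) and -0.26 in *srb2∆* (adjusted p = 0.151), the value in *srb2∆* turning positive with quantile normalization. Of 9 regulator genes, which also include *RAP1*, *ABF1* and genes of the Gcn2p pathway, 1 was called higher in *sin3∆* (*BAS1*) and 4 in *srb2∆*, none lower. In *srb2∆* these were *GCN3*, for a subunit of eIF2B, with the largest value at 1.43, and *GCN1*, *GCN20* and *BAS1*, of which *GCN1* and *GCN20* were named after their values were seen. Without replicate 3 of the wild type, *GCN1* had 0.82 and *GCN20* 0.96 and the count was 2, and after total-sum scaling it was 1. These shares stand beside 17.7% of all genes called higher in *sin3∆* and 15.0% in *srb2∆*. None was called in *mig1∆*, where 3 had an unadjusted p under 0.05, against 28.9% of all genes.

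Some genes that feed or drain the pathway were called in *sin3∆* and *srb2∆*, and most of these calls hung on the scaling. Of 12 genes for phosphoribosyl pyrophosphate synthesis, AICAR use, histidine uptake, vacuolar transport and charging, 11 were tested. Of these, 4 were called higher and 1 lower in *sin3∆*, against 17.7% and 12.2% of all genes. In *srb2∆* 5 were called higher and none lower, against 15.0% and 14.9%. None was called in *mig1∆*, where 4 had an unadjusted p under 0.05, against 28.9% of all genes. Of this list, *PRS1* (1.11 in *sin3∆*, 1.12 in *srb2∆*), *PRS3* (called in *srb2∆*) and *ADE16* (-1.02 in *sin3∆*) were named after their values were seen. After total-sum scaling 2 were called higher and 2 lower in *sin3∆*, and 1 higher and 2 lower in *srb2∆*, with *PRS1* at 0.78 and 0.90 and not called. *ADE16* was not called with scaling without the ribosomal protein genes (-0.93), with quantile normalization (-0.993), with a pseudocount of 5 (-0.999) or without replicate 2 of the wild type (-0.96). *HTS1*, the histidyl-tRNA synthetase gene, had 212 and 217 RPKM in *sin3∆*, 185 and 189 in *srb2∆*, 102 and 97.5 in *mig1∆*, and 102 and 93.7 in the wild type. It changed by 1.12 on the log2 scale in *sin3∆* (adjusted p = 5.41e-06), or 0.79 after total-sum scaling, and 0.93 in *srb2∆* (adjusted p = 1.4e-05). *HIP1*, the histidine permease gene, had 131 and 133 RPKM in *sin3∆*, 142 and 147 in *srb2∆*, 65.1 and 62.7 in *mig1∆*, and 76.2 and 64.4 in the wild type. It had 0.91 in *sin3∆* and 1.03 in *srb2∆* (adjusted p = 5.69e-05 and 2.85e-05), so that only the value in *srb2∆* passed 2-fold, and not with total-sum scaling (0.81), with a pseudocount of 5 (0.99) or without replicate 3 of the wild type (0.91). In *sin3∆* it passed without replicate 2 of the wild type, at 1.02. *VBA1*, the gene of a vacuolar transporter of basic amino acids, had 237 and 247 RPKM in *sin3∆*, 28.1 and 27.2 in *srb2∆*, 34.9 and 32.3 in *mig1∆*, and 43.1 and 33.3 in the wild type. It stood high in *sin3∆* alone, at 2.64 (adjusted p = 1.4e-06). *ADE17*, which encodes an enzyme that uses AICAR, had 169 and 174 RPKM in *sin3∆*, 516 and 525 in *srb2∆*, 155 and 156 in *mig1∆*, and 126 and 110 in the wild type. It was called in *srb2∆* at 2.13 (adjusted p = 5.22e-07). *PRS4*, for phosphoribosyl pyrophosphate synthetase, was called in *sin3∆* at 1.38 and in *srb2∆* at 1.06, or 0.85 after total-sum scaling (adjusted p = 3.42e-06 and 1.2e-05).

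Other amino acid pathways also rose in *sin3∆*. Called higher there, with none lower, were 8 of 9 arginine genes, 7 of 7 lysine genes, 9 of 11 branched-chain genes, 10 of 14 aromatic genes and 4 of 5 threonine genes. Over all genes, 17.7% were called higher and 12.2% lower. Of 3 proline genes none was called, with 2 at an unadjusted p under 0.05, against 76.2% of all genes. The median log2 fold changes were 2.48 for arginine, 2.27 for lysine, 2.05 for the branched chain, 1.503 for aromatic and 1.92 for threonine genes, beside 2.08 for histidine and 0.01 for all genes. *ARG1*, the argininosuccinate synthetase gene, had 1079 and 1145 RPKM in *sin3∆*, 44.0 in both *srb2∆* libraries, 23.1 and 26.2 in *mig1∆*, and 26.7 and 27.1 in the wild type. *LYS20*, for homocitrate synthase, rose by 3.58 and *HOM3*, for aspartate kinase, by 2.37 on the log2 scale in *sin3∆* (adjusted p = 1.65e-07 and 3.54e-07).

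Fewer genes of these lists, proline excepted, were called in *srb2∆*, where 15.0% of all genes were called higher and 14.9% lower. There 4 of 11 branched-chain genes were called higher (*BAT2*, *LEU9*, *ILV6* and *ILV2*) and 1 lower (*LEU4*), and 4 of 14 aromatic genes higher (*ARO9*, *ARO7*, *TRP4* and *ARO4*). Called as well were 2 of 7 lysine genes higher (*LYS4* and *LYS20*), 1 of 5 threonine genes (*THR4*) and 1 of 3 proline genes (*PRO1*) higher, and 2 of 9 arginine genes lower (*ARG4* and *ARG3*). Of these, *ILV6*, *ILV2*, *LEU4*, *ARO7*, *LYS4*, *THR4* and *ARG4* were named after their values were seen. With *mig1∆* as the control, *TRP4* had 0.50, *ARO4* 0.75 and *BAT2* 0.99, none of them called. After total-sum scaling *ILV2* had 0.91 and *ARO4* 0.88, also not called. *ARG3*, at -1.03, was low, with 3.27 and 1.95 RPKM in *srb2∆* and 6.08 and 6.40 in the wild type. It fell short of 2-fold without replicate 3 of *srb2∆* (-0.76) or of the wild type (-0.997). So it did with scaling without the ribosomal protein genes (-0.85), quantile normalization (-0.63), a pseudocount of 5 (-0.57) and *mig1∆* as the control (-0.22). *LYS20*, at 1.02, fell short without replicate 3 of the wild type (0.92), after total-sum scaling (0.80) and with a pseudocount of 5 (0.996). The lysine count in *srb2∆* was 0 after total-sum scaling, and 4 with scaling without the ribosomal protein genes, with a pseudocount of 0.1 or without replicate 2 of the wild type. The threonine count was 2 without that library, and *PRO1* was not called after total-sum scaling (0.91). In the direct comparison of *sin3∆* with *srb2∆*, 9 of 9 arginine, 6 of 7 lysine, 7 of 11 branched-chain, 7 of 14 aromatic and 2 of 5 threonine genes were called higher and none lower, beside the 3 of 7 histidine genes. In that comparison 11.9% of all genes were called higher and 2.95% lower. Against the wild type, the median log2 fold change in *srb2∆* was -0.32 for arginine, 0.98 for lysine and 0.46 for the branched chain. It was 0.56 for aromatic, 0.23 for threonine and 0.58 for proline genes, beside 0.38 for histidine. Of 8 adenine synthesis genes, 7 were called higher in *srb2∆* with a median of 1.84, and 5 in *sin3∆* with a median of 1.04, none lower. The count in *sin3∆* was 1 after total-sum scaling and 3 without replicate 3 of the wild type, and that in *srb2∆* was 6 and 7. *ADE6*, of the purine pathway, had 116 and 111 RPKM in *sin3∆*, 211 and 209 in *srb2∆*, 71.1 and 66.8 in *mig1∆*, and 57.3 and 37.0 in the wild type. Its value in *srb2∆* was 2.17 (adjusted p = 2.26e-05), and that in *sin3∆* was 1.28 (adjusted p = 0.000371) but 0.97, no longer called, without replicate 3 of the wild type. In *mig1∆* no gene of these lists was called. *ARO9* (0.955, adjusted p = 0.000861) and *TRP4* (0.80, adjusted p = 0.0029) passed the adjusted p but not the fold threshold there. The aromatic count in *mig1∆* was 1 with scaling without the ribosomal protein genes and with a pseudocount of 0.1. At an unadjusted p under 0.05 stood 7 of 8 adenine, 5 of 9 arginine, 3 of 7 lysine and 2 of 11 branched-chain genes. So did 4 of 14 aromatic, 1 of 5 threonine and 0 of 3 proline genes, against 28.9% of all genes.

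**Figure D4:**
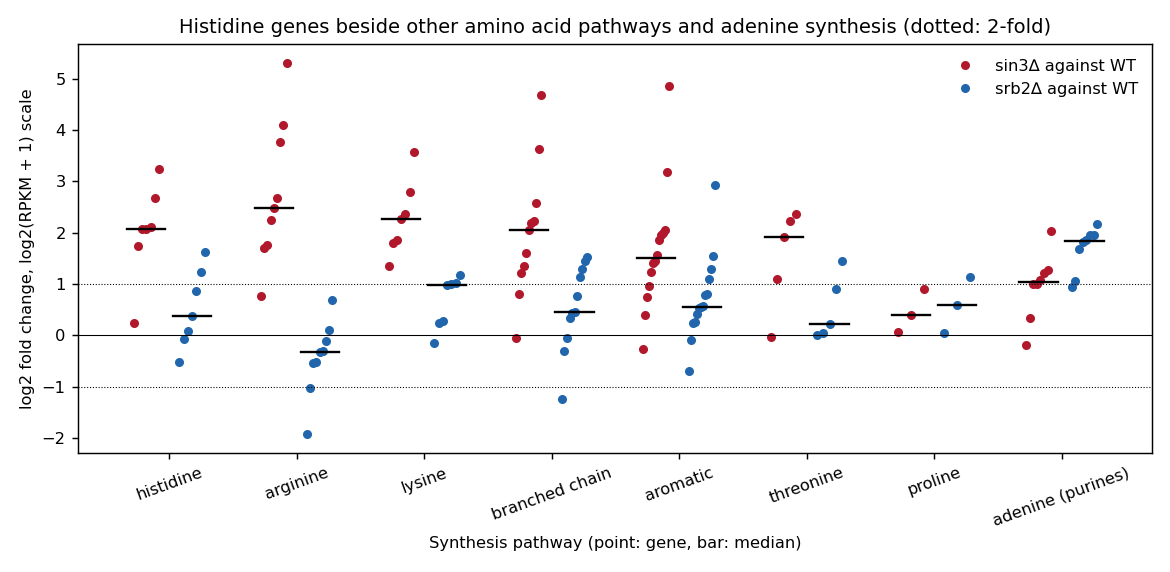
Log2 fold change against the wild type in *sin3∆* and *srb2∆*, on the log2(RPKM + 1) scale, of the genes of 7 amino acid pathways and of adenine synthesis. Points are genes, bars are medians and dotted lines mark 2-fold. Medians of histidine, arginine, lysine and branched-chain genes lie above 2 in *sin3∆*, and that of adenine genes is higher in *srb2∆*, at 1.84, than in *sin3∆*, at 1.04.

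The genes whose levels ran most like the mean of the 7 were sought by Pearson's r over the 8 libraries among 4947 genes that averaged 10 RPKM or more. They were *CHA1*, for serine and threonine deaminase (0.999), *UIP5* (0.998), *LYS12*, for homoisocitrate dehydrogenase (0.998), *GLN1*, for glutamine synthetase (0.997), and *FIT2*, for a cell wall mannoprotein (0.996). *CHA1* had 1347 and 1271 RPKM in *sin3∆*, 109 and 105 in *srb2∆*, 28.7 and 30.9 in *mig1∆*, and 45.1 and 46.9 in the wild type. *GLN1* had 2041 and 2046 RPKM in *sin3∆*, 872 and 878 in *srb2∆*, 596 and 639.8 in *mig1∆*, and 676 and 616 in the wild type. Both were highest in *sin3∆* and intermediate in *srb2∆*, as the mean of the 7 genes was.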

How the data were processed

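RNA-seq of 4 strains with 2 libraries each was analysed. The authors made the deposited RPKM values with Bowtie2 (mapping to R64) and RSEM, as the methods and the submitters' processing notes state, and the name of their table gives TMM as the normalization. The authors' comparison tables, which hold log2 fold changes, p-values and FDR of the genes they called, were not used. The table held 6103 gene lines besides 3 empty ones. Of the 6103, 5977 matched R64 and 309 were at 0 in all libraries. Read counts were not used here, so the authors' DESeq2 test could not be applied to these RPKM values. With no read counts behind the values, the precision came from the spread between libraries of the same strain. That spread was pooled over the 4 strains and drawn by limma toward that of genes of like level.

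The 5628 genes that reached 1 RPKM in 2 or more libraries were fitted on the log2(RPKM + 1) scale in limma 3.58.1 under R 4.3.3 with 4 groups, a trended prior and 4 residual degrees of freedom, and p-values were adjusted by Benjamini and Hochberg over all of them. The fit was tested on simulated data. The members, lists and tests were chosen with earlier results of these data known. The text names the 7 genes, the deleted genes, *GCN4*, *GCN2*, *BAS1*, *PHO2*, *HIP1*, *HTS1*, up to 4 further called genes of the regulator and supply lists, up to 2 called genes per other list, the 5 genes most correlated with the members, and called neighbours.

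Alternatives in scaling were median-ratio, total-sum and quantile scaling, and scaling without the ribosomal protein genes. Those in filter and pseudocount were no filter, a filter at a mean of 10 RPKM, and pseudocounts of 0.1 and 5. Others were no trend, only the 2 groups compared, calls without the fold threshold, and limma's treat at a fold of 1.5. Each library of the 2 groups compared was also left out in turn. For *sin3∆* and *srb2∆*, *mig1∆* was used in place of the wild type. A replicate block was used for *srb2∆* against the wild type.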

Additional observations from a re-analysis of the deposited data

How the results depend on the processing

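Counts of histidine genes called in *sin3∆* against the wild type kept to 6 higher and 0 lower under all 17 alternatives. With no fold threshold the counts were 4 higher and 1 lower in *srb2∆*, 2 lower in *mig1∆* and 7 higher in *sin3∆* against *srb2∆*, and with a test against a fold of 1.5 the last was 5. Scaling without the ribosomal protein genes gave 3 higher in *srb2∆*. Total-sum scaling moved the median log2 fold change of all genes to -0.30 in *sin3∆* and -0.22 in *srb2∆*, and scaling without the ribosomal protein genes moved it to 0.20 in *srb2∆*. Quantile normalization and scaling without the ribosomal protein genes moved it to -0.12 and -0.13 in *sin3∆* against *srb2∆*. The split of all calls was 995 higher to 685 lower in *sin3∆* and 844 to 837 in *srb2∆* as deposited, 648 to 1117 and 588 to 1146 with total-sum scaling, and 1102 to 605 and 1097 to 633 without the ribosomal protein genes. Among the values followed, sign changes were confined to small values and 1 neighbour gene, and the cause was not tested. Total-sum scaling gave -0.090 for *HIS2* and -0.26 for *PHO2* in *sin3∆*, and -0.14 for *HIS5*, -0.12 for *GCN4* and -0.20 for *PHO2* in *srb2∆*. Scaling without the ribosomal protein genes gave 0.15 for *HIS3* in *srb2∆* and 0.018 for *HIS7* in *mig1∆*, and quantile normalization gave 0.062 for *GCN2* in *srb2∆*. With *mig1∆* as the control, *HIS3* had 0.15 and *GCN4* -0.17 in *srb2∆*, and *PRM5* had 0.16 in *sin3∆*.

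With single libraries left out, *HIS7* in *mig1∆* lay between -0.10 without replicate 3 and 0.014 without replicate 2 of the wild type. *PHO2* lay between -0.047 (without replicate 3 of the wild type) and 0.16 in *sin3∆*, and between -0.089 (without that library) and 0.12 in *srb2∆*, with -0.084 without replicate 3 of *srb2∆*. Of the members' values under alternatives, 450 kept their direction and their side of the threshold, 13 passed it newly and 6 changed sign. Values of the other named genes were followed only in *sin3∆* and *srb2∆* against the wild type. Apart from *GCN4*, *GCN2*, *BAS1*, *PHO2*, *HIP1* and *HTS1*, they were followed only where called, so that those could not pass the threshold newly. Of the values followed, 1321 kept both, 9 passed the threshold newly, 58 no longer passed it and 9 changed sign. This tally is therefore no measure of how often uncalled genes came to be called. Of the counts of the other lists, 106 moved by over 1.5 times and 1234 did not. The wild type and *srb2∆* share the replicate numbers 2 and 3, and deviations of same-numbered libraries had r = 0.06 over 5628 genes. A replicate block for these numbers gave 2 histidine genes higher and 0 lower in *srb2∆*, and 841 higher and 842 lower over all genes. The other comparisons share fewer than 2 replicate numbers and had no such fit.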

Other observations

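The annotated neighbours of the 7 genes did not follow one course. Of 14 neighbours, 5 were called higher and 2 lower in *sin3∆*, against 17.7% and 12.2% of all genes. In *srb2∆* 7 were called higher and 2 lower, against 15.0% and 14.9%. In *mig1∆* 0 were called higher and 1 lower, against 0.995% and 0.657%. *FCY2*, the purine-cytosine permease gene beside *HIS1*, had 463 and 453 RPKM in *sin3∆*, 446 and 463 in *srb2∆*, 68.9 and 73.1 in *mig1∆*, and 54.0 and 65.7 in the wild type. Its log2 fold changes were 2.92 in *sin3∆* and 2.91 in *srb2∆* (adjusted p = 3.99e-07 and 4.41e-07). *ULI1*, beside *HIS2*, had 20.9 and 15.2 RPKM in *sin3∆*, 7.35 and 12.2 in *srb2∆*, 403 and 452 in *mig1∆*, and 782 and 860 in the wild type, with log2 fold changes of -5.44 in *sin3∆* and -6.29 in *srb2∆* (adjusted p = 1.01e-06 and 5.22e-07). *ARO4*, the gene beside *HIS7* and itself an enzyme of aromatic amino acid synthesis, had log2 fold changes of 2.05 in *sin3∆* and 1.10 in *srb2∆* (adjusted p = 6.71e-07 and 1.1e-05), or 0.88 and not called in *srb2∆* after total-sum scaling.

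*PRM5*, beside *HIS5*, moved unlike its neighbour. It had 4.61 and 3.96 RPKM in *sin3∆*, 73.5 and 74.8 in *srb2∆*, 3.09 and 4.49 in *mig1∆*, and 12.4 and 11.4 in the wild type. The log2 fold changes were -1.29 in *sin3∆*, 2.54 in *srb2∆* and -1.44 in *mig1∆* (adjusted p = 0.000152, 4.65e-06 and 0.00221). The call in *sin3∆* was lost with a pseudocount of 5, at -0.86. *FAF1*, beside *HIS6*, and *ENP1*, on the other side of *HIS7*, rose in both *sin3∆* (1.91 and 1.41) and *srb2∆* (1.47 and 1.70), as did *RRP7*, beside *HIS4* (1.34 in *sin3∆* and 2.16 in *srb2∆*). *MRM1*, beside *HIS3*, was called in *srb2∆* alone against the wild type, at -1.26, and *BIK1*, on the other side of *HIS4*, likewise at 1.01. The value of *BIK1* did not pass 2-fold without replicate 2 of *srb2∆* (0.93) or without replicate 3 of the wild type (0.98). Nor did it after total-sum scaling (0.79), with a pseudocount of 5 (0.92) or with *mig1∆* as the control (0.79).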
